A study of Mus musculus with 10 samples.

Results

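Small nucleolar RNAs and small Cajal body RNAs were followed across microglia libraries made by laser capture and by flow sorting. The set was chosen by name and level: rows of the deposited gene table named Snord, Snora or Scarna with a number, in capitals or not, that had at least 1 FPKM in at least 3 of the 10 libraries. FPKM is the number of sequenced fragments scaled to the length of a transcript and to the mapped fragments of a library. Of 37447 rows in the table, 1425 carry such a name and 68 reached that level. The 68 comprise 4 C/D RNAs (Snord118, Snord17, Snord89 and Snord13), 52 H/ACA RNAs and 12 Cajal body RNAs. Because levels chose the members, their levels over all libraries are given as a description.

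Small nucleolar RNAs are short nuclear RNAs that pair with other RNAs and carry modifying proteins to them. C/D RNAs guide 2'-O-methylation through the methyltransferase fibrillarin, H/ACA RNAs guide pseudouridylation through dyskerin, and Cajal body RNAs guide the same changes on spliceosomal RNAs. Most of them in mammals are cut out of the introns of host genes, many of which encode ribosomal proteins. A few, among them U8 (Snord118) and U13 (Snord13), have promoters of their own and are known for roles in the processing of ribosomal RNA.

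Microglia are the resident macrophages of the brain. The libraries came from brainstem of mice aged 6 weeks and formed 3 groups. LCM_GFP held 4 libraries of GFP expressing microglia taken by laser microdissection from tissue briefly fixed in paraformaldehyde, snap frozen and cut (3 female, 1 male), with RNA isolated by proteinase K and acid phenol. FACS_GFP held 3 libraries of GFP expressing microglia sorted from dissociated tissue after a Percoll gradient (2 female, 1 male), and FACS_WT held 3 libraries of microglia from C57BL/6 mice sorted in the same way (3 male), both with RNA isolated by TRIzol. The labels name no strain or promoter for the GFP, and they call each library a biological replicate. All RNA was amplified with the Ovation RNA-Seq method and libraries were selected for fragments of 300 to 500 bp. Laser capture therefore cannot be told apart from fixation and RNA isolation, and between the sorted groups sex differs in part, with 1 male library in FACS_GFP. LCM_GFP and FACS_WT also differ in GFP expression and in sex. Libraries 1 and 3 of LCM_GFP stood apart from libraries 2 and 4 in most erythroid and cell cycle markers, though not in all. Counts of called members against sorted cells are given with and without libraries 1 and 3.

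The sequences of 3 C/D members show the features of the class. The C box (ATGATGA or GTGATGA) and the D box (CTGA) are in capitals. Snord44 and Snord47, a pair of typical short C/D RNAs that are often used as references in quantitative PCR and lie within Gas5, are shown for contrast because they were listed at 0 in all 10 libraries. Sequences are GENCODE M21 transcripts in the GRCm38 build, 5' to 3' on the transcript strand: Snord118 at chr11:69073427-69073561 (plus strand), Snord17 at chr2:144265979-144266216 (minus), Snord89 at chr1:39548745-39548854 (minus), Snord44 at chr1:161036682-161036741 (plus) and Snord47 at chr1:161038082-161038158 (plus).
Snord118: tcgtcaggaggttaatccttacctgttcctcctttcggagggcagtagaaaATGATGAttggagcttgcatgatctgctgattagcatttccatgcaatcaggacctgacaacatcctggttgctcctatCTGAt
Snord17: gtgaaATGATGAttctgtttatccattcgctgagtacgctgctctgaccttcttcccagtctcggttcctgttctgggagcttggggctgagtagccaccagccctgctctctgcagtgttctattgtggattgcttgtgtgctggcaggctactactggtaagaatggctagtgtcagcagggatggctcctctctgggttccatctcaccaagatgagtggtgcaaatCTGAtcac
Snord89: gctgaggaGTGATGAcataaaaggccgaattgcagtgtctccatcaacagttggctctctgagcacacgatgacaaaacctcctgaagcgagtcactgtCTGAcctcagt
Snord44: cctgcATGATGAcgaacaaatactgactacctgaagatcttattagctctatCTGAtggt
Snord47: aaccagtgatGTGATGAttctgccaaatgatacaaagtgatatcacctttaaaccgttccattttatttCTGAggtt

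Snord118 and Snord13 lie in no host gene on their strand. Snord17 lies in an intron of the sorting nexin gene Snx5, and Snord89 in an intron of the noncoding gene Gm15832. The next sequences are H/ACA members on which the comparisons below turn, with the ACA box near the 3' end in capitals: Snora33 at chr10:23785347-23785475 (minus) within Rps12, Snora31 at chr14:75847905-75848034 (plus) in an intron of Tpt1 and Snora23 at chr7:110046364-110046547 (plus) in an intron of Ipo7. Snora33 overlaps an exon of at least 1 annotated transcript of its host.
Snora33: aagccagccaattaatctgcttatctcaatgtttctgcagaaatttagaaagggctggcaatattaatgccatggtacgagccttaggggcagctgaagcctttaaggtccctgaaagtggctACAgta
Snora31: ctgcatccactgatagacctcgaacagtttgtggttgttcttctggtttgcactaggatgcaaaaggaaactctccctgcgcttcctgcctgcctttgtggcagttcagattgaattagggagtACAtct
Snora23: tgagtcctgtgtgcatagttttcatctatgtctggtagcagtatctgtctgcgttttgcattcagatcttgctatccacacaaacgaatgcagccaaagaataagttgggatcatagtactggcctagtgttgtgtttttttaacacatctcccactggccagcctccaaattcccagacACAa

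Among the 48 H/ACA members with a matched sequence, 79.2% had the letters ACA ending 3 bases before the 3' end, against 24.7% of the 969 H/ACA rows with a sequence and 2.46% of 2890 rows of other small RNAs. A D box within the last 12 bases was found in 4 of 4 C/D members and in 76.6% of the 171 C/D rows with a sequence, against 4.57% of the other small RNAs. A C box within the first 20 bases was found in 2 of 4 C/D members, and that of Snord118 starts at base 52. Only the transcript strand was searched. Of the 68 members, 49 share their name with another row (SNORA17 names 612 rows), and 44 have names in capitals, which mark rows named for a family. No member with a matched sequence was identical to another listed row, but the treatment of fragments that align to several such copies is not given in the sources used here, so the value of 1 row among near copies is uncertain.

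C/D RNAs were nearly all short, and short rows were nearly all listed at 0. The median length was 79 bases over 350 C/D rows, 130.5 over 1032 H/ACA rows and 137 over 43 Cajal body rows. Under 100 bases, 6 of 334 C/D rows (1.8%), 0 of 55 H/ACA rows and 0 of 5 Cajal body rows had a value above 0.01 FPKM in any library, against 13 of 1007 rows of other small RNAs (1.29%). From 100 to 414 bases, 9 of 16 C/D rows (56.2%), 152 of 977 H/ACA rows (15.6%) and 19 of 38 Cajal body rows (50%) did, against 228 of 1878 rows of other small RNAs (12.1%). Members were 100 to 414 bases long, so the set holds the long end of the C/D class, not its usual members.

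**Figure D1:**
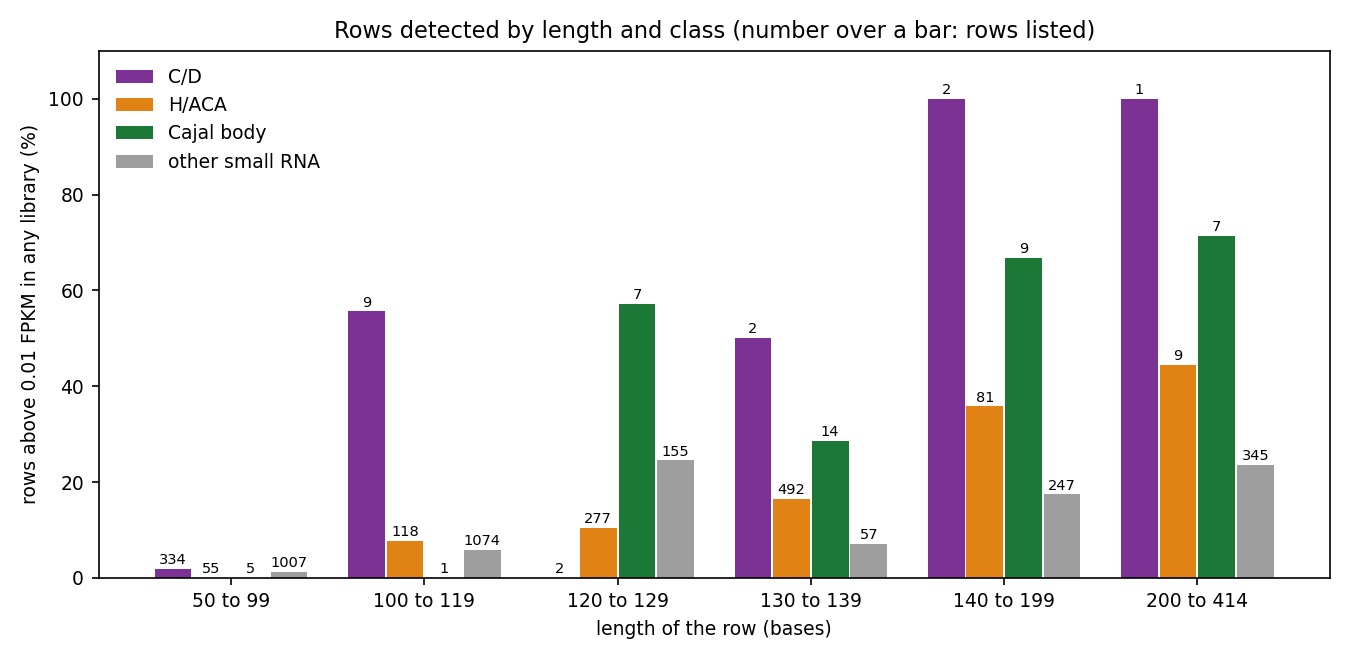
Percent of rows with a value above 0.01 FPKM in any of the 10 libraries (vertical axis), by length of the row in bases (horizontal axis) and class (bar colour); the number over a bar is the number of rows listed. At 50 to 99 bases the highest share is 1.8%, and 334 of the 350 C/D rows lie there.

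The 6 short C/D rows above 0.01 FPKM (Snord82, Snord91a, 1 SNORD116 row, Snord83b, SNORD16 and Snord16a, 70 to 99 bases) had a value in 1 library each. Those values were 1705 to 9697 FPKM. Snord82, the shortest, had the 9697 FPKM, in library 2 of LCM_GFP. The shortest member, SNORA32 (100 bases), had 1586 and 1034 FPKM in libraries 3 and 4 of LCM_GFP and 1159 FPKM in library 1 of FACS_GFP, and was listed at 0 in the other 7. High FPKM of such rows therefore stood beside 0 in libraries of the same group.

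The names best known from textbooks were mostly at 0. Of 42 such names, 32 had a row and 22 of these had no value above 0.01 FPKM. All 137 rows of SNORD115 and all 21 rows of SNORD113 were listed at 0, and 1 of 27 rows of SNORD116 had a value (1986 FPKM, library 2 of LCM_GFP). These are the brain C/D families of the Prader-Willi and Dlk1-Dio3 imprinted loci. Snora35, an H/ACA RNA of 128 to 129 bases from the serotonin receptor gene Htr2c, had 2 rows at 0. The Rpl13a C/D RNAs (Snord32a, Snord33, Snord34 and Snord35a) and the qPCR references Snord61, Snord72, Snord95 and Snord96a were also listed at 0. Snora73a (205 bases), of the U17 family that acts in cleavage of ribosomal RNA, was listed at 0, while its relative Snora73b, of the same length, was a member.

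By the level that chose them, members were fewer in the laser-captured libraries, a description that draws on 6 sorted and 4 laser-captured libraries. The number of members at 1 FPKM or more was 15, 21, 23 and 13 in LCM_GFP libraries 1 to 4, 44, 41 and 47 in FACS_GFP libraries 1 to 3, and 47, 49 and 48 in FACS_WT libraries 1 to 3. No LCM_GFP library reached the lowest sorted library. Over all 1425 rows of such a name, without the choice by level, the number was 32, 42, 34 and 23 in LCM_GFP, 59, 57 and 56 in FACS_GFP, and 70, 67 and 61 in FACS_WT, again without overlap. Rows of other small RNAs at 1 FPKM or more numbered 27 to 62 in LCM_GFP, 45 to 55 in FACS_GFP and 44 to 64 in FACS_WT, and these ranges overlapped. The members' summed FPKM was 0.101% to 0.809% of a library in LCM_GFP, 3.03% to 4.56% in FACS_GFP and 1.23% to 2.20% in FACS_WT. Snord118 alone gave 49.4% to 67% of that sum in the sorted libraries and none of it in the laser-captured ones.

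**Figure D2:**
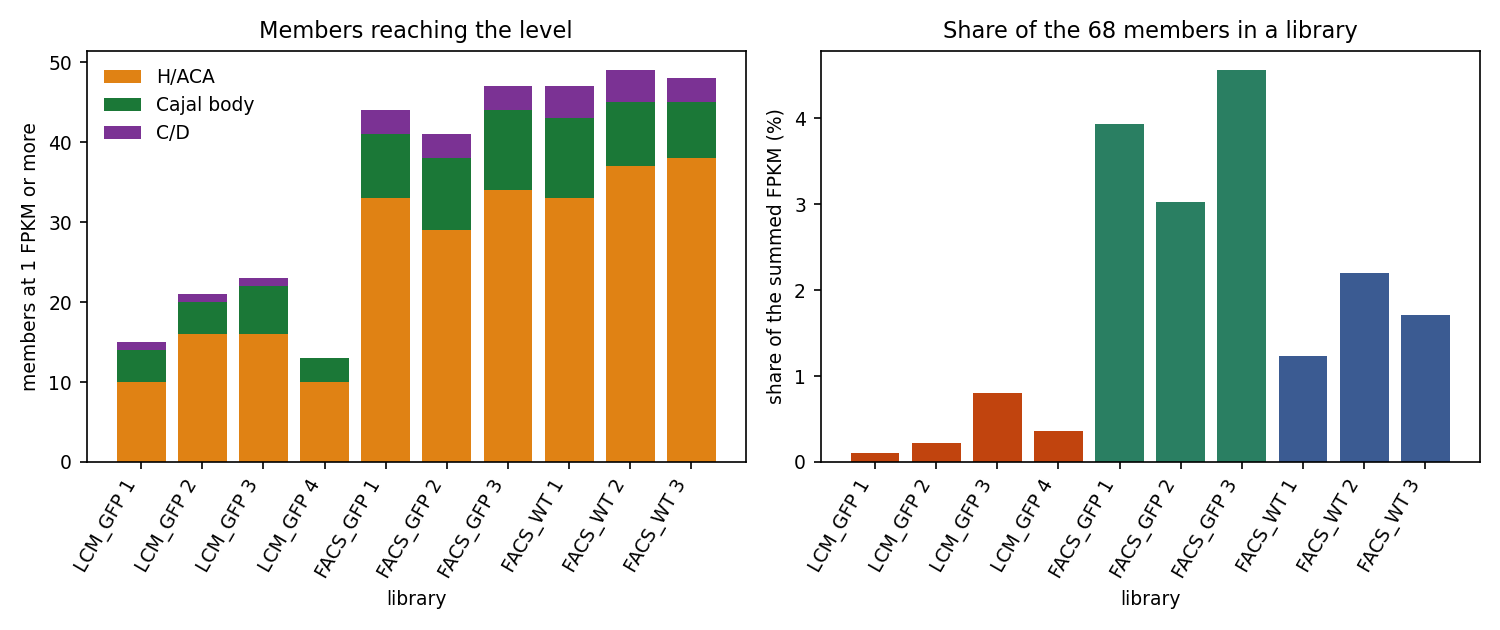
Left, number of members at 1 FPKM or more in each library, stacked by class. Right, share of each library's summed FPKM taken by the 68 members, in percent, coloured by group. The laser-captured libraries hold 13 to 23 members at that level and the sorted ones 41 to 49.

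Over the 3 groups, 29 members reached 1 FPKM in at least 1 library of each, and 31 reached it in no LCM_GFP library (3 C/D, 23 H/ACA and 5 Cajal body RNAs). Of the 17 that reached it in all 6 sorted libraries, 7 did so in no LCM_GFP library. Snora23 and Scarna2, a long Cajal body RNA known in human to guide methylation of U2 spliceosomal RNA, reached it in all 10. Scarna2 had 5.73, 5.16, 1.10 and 4.01 FPKM in LCM_GFP, 6.94, 6.21 and 17.7 FPKM in FACS_GFP, and 3.90, 6.82 and 9.46 FPKM in FACS_WT. Exactly 3 libraries at that level were the base of 16 memberships. Just inside the rule were Scarna6 and Snora73b, where the third highest FPKM was 1.21 and 1.30, and just outside were Scarna10 and Scarna13 with 0.920 and 0.862.

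Most markers of neurons, oligodendrocytes and astrocytes moved with the isolation method. Over 10 microglia markers (Cx3cr1, P2ry12 and others) the summed FPKM was 1123 to 2689 in LCM_GFP, 3797 to 4429 in FACS_GFP and 4443 to 5702 in FACS_WT, and none was at 0 in a whole group. Over 6 neuron markers it was 679 to 1922 in LCM_GFP, 1.84 to 7.91 in FACS_GFP and 0.647 to 0.811 in FACS_WT (Syt1 at 0 in all FACS_WT libraries). For 6 oligodendrocyte markers the sums were 2563 to 6660, 21.2 to 26.5 and 23.5 to 32.8 in the same order, and for 6 astrocyte markers 434 to 823, 29.2 to 32.8 and 20.8 to 25.3, with none at 0 in a whole group. The astrocyte marker Slc1a3 did not move, with 8.14, 46.9, 24.4 and 26.7 FPKM in LCM_GFP and 26.5, 30.5 and 27.4 FPKM in FACS_GFP. It had 22.2, 23.5 and 19.4 FPKM in FACS_WT, and made up most of the astrocyte sums in sorted libraries. Libraries 1 and 3 of LCM_GFP stood apart from libraries 2 and 4 in most of 5 erythroid markers. Hba-x was at 1853 and 661 FPKM there, 2.16 and 0.225 FPKM in libraries 2 and 4, and 0 in all sorted libraries. The exception was Hbb-b1, at 0, 10.2, 1.23 and 0 FPKM in LCM_GFP libraries 1 to 4. The summed range over the 5 erythroid markers was 0.308 to 2912 in LCM_GFP, 2.42 to 3.28 in FACS_GFP and 1.97 to 2.63 in FACS_WT. Over 5 cell cycle markers it was 16.1 to 605, 7.85 to 15.8 and 5.14 to 8.79 in the same order. Mki67 was at 202 and 46.6 FPKM in libraries 1 and 3 of LCM_GFP. Cdk1 was highest in library 4 instead, at 8.83, 1.43, 9.79 and 13.9 FPKM in libraries 1 to 4. Aurkb in library 3 (1.825 FPKM) lay below every FACS_GFP library. The part of all these markers in the small RNA results was not tested. In bulk libraries such as these, fewer cells of a type and less RNA per cell cannot be told apart.

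The FPKM of short rows came in steps. Within a narrow window of length, values of a library bunched, and the median of the densest bunch (values within 1.4-fold) was taken as the worth of 1 fragment and is called the single-fragment value. It is an estimate and not a count. At about 120 bases it was 37.6 to 49.5 FPKM in LCM_GFP, 78.8 to 101 FPKM in FACS_GFP and 35.5 to 44.5 FPKM in FACS_WT. At just over 130 bases it was 43.1 to 61.2 FPKM in FACS_GFP and 17.9 to 20.8 FPKM in FACS_WT. In LCM_GFP it was 18.1 to 55.7 FPKM, where the bunch held 2 to 5 values a library. The 55.7 FPKM, of library 1, exceeded that library's 37.6 FPKM at about 120 bases, while all other libraries fell. It may therefore be the worth of more than 1 fragment. The FACS_GFP and FACS_WT values did not overlap at either length.

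Of 24 members of just over 130 bases, the 6 sorted libraries gave 144 values, of which 95 were above 0.01 FPKM. Of these, 41 lay within 1.4-fold of the single-fragment value and 16 were above 5 times it. For these members a value of 0 marks a level not detectable at this depth.

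**Figure D3:**
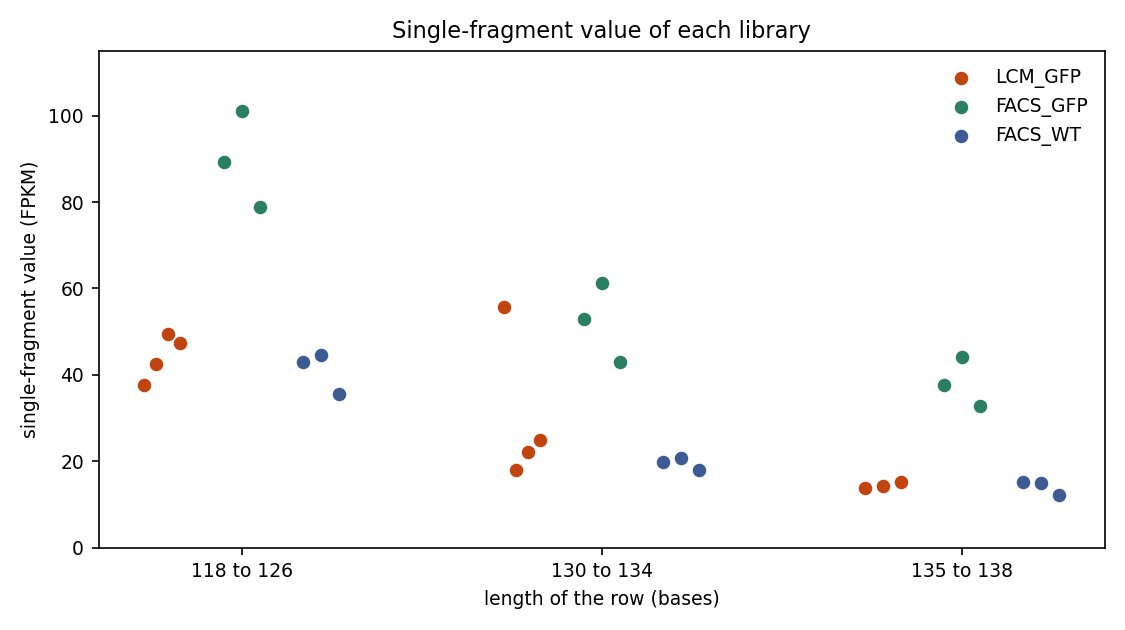
Single-fragment value in FPKM (vertical axis) of each library, as 1 point, in 3 windows of row length in bases (horizontal axis), coloured by group. The FACS_GFP points lie above the FACS_WT points in each window, at 78.8 to 101 against 35.5 to 44.5 FPKM in the shortest, and the LCM_GFP points of the longer windows rest on few values.

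Laser-captured against sorted GFP microglia was the comparison of isolation method. Snord118 (U8), needed for processing of large subunit ribosomal RNA, was by far the highest member in sorted cells: it was listed at 0 in all 4 LCM_GFP libraries, against 10053, 6744 and 16244 FPKM in FACS_GFP and 2878, 5676 and 4667 FPKM in FACS_WT. In single-fragment values these were 267, 153 and 495 in FACS_GFP and 189, 376 and 383 in FACS_WT. The groups did not overlap, and adjusted p from the limma test below was 1.73e-06 for LCM_GFP against FACS_GFP and 5.17e-06 against FACS_WT. Snord118 entered these tests only through the sorted libraries. No fold is given against a group at 0.

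Of the 68 members, 40 had at least 1 FPKM in 3 of the 7 libraries and entered the test (limma on log2(FPKM + 1), adjusted over 13403 genes). Of these, 18 were lower in LCM_GFP (3 C/D, 13 H/ACA and 2 Cajal body RNAs) and 1, Snora23, was higher. Among all genes tested, 19.6% were lower and 12.5% were higher. A member at 0 in one group could enter only through the other, and 13 of the 18 were at 0 in all LCM_GFP libraries. The adjusted p of such members, here and in the comparisons below, is given as a description. Among the 27 that reached 1 FPKM in both groups, 5 were lower and 1 was higher. The share lower is near the 19.6% of all genes, so it is no result about these 27. The median log2 change was -3.42 over the 40 and -2.30 over the 27 with a value above 0.01 in both groups. It was -0.60 over all genes tested, which were not limited to those with values in both groups. Without libraries 1 and 3 of LCM_GFP, an alternative chosen after seeing the data, 19 of 31 were lower and 1 was higher. Of all 11547 genes tested in that setting, 4084 were lower and 901 were higher.

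**Figure D4:**
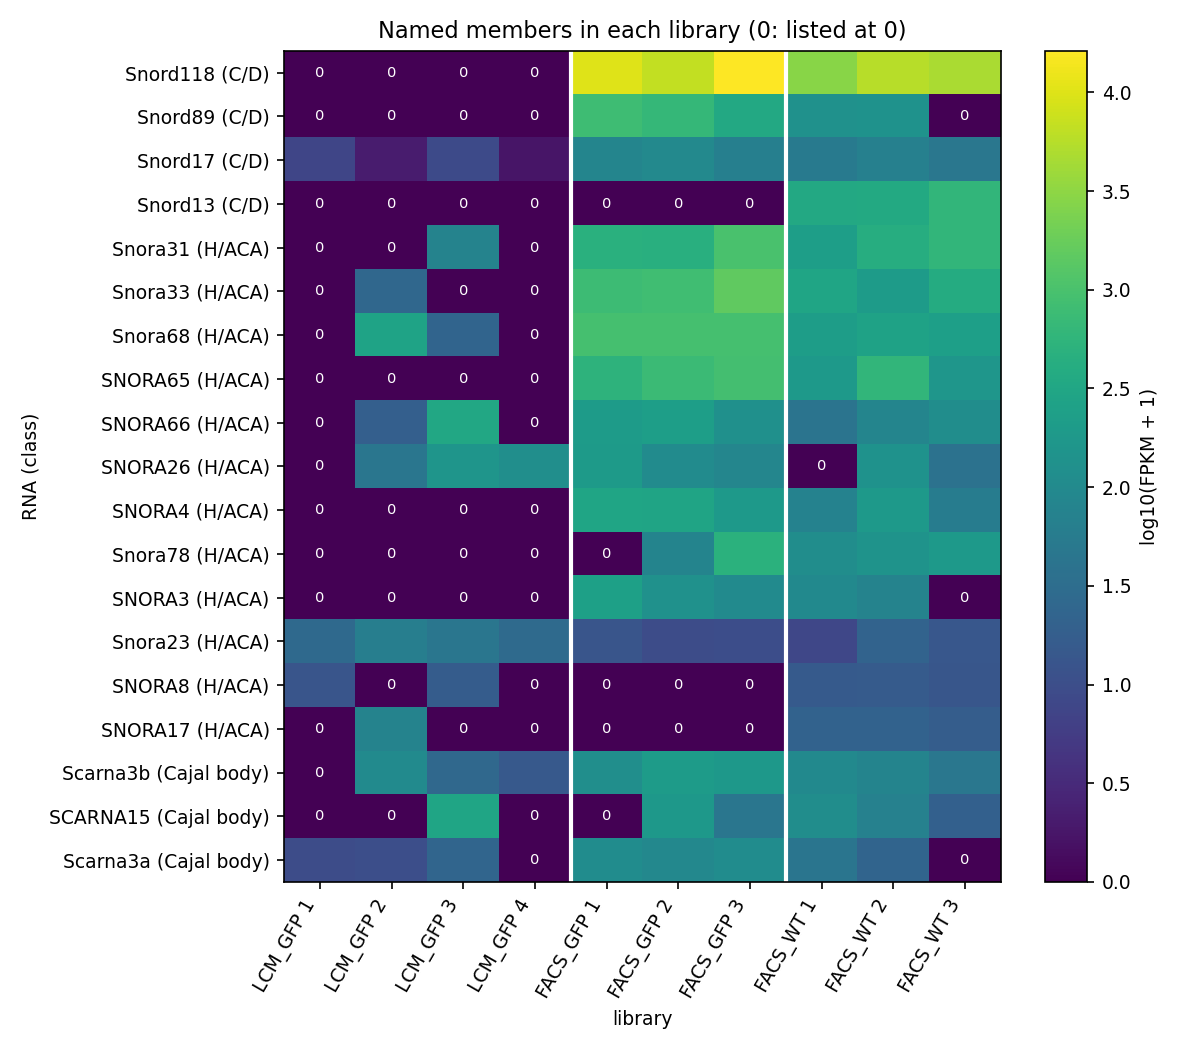
Level of the 19 members named by rule in each library, as log10(FPKM + 1) in colour, with rows ordered by class and median and columns by group. White lines part the groups, and 0 marks a value listed at 0. Of the 4 C/D rows, 3 are at 0 in every laser-captured library, and Snora23 is the row that is higher there.

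Snord17, the longest C/D member at 238 bases, had 6.52, 1.11, 7.85 and 0.723 FPKM in LCM_GFP, 82.6, 96.0 and 63.5 FPKM in FACS_GFP, and 53.9, 67.6 and 45.1 FPKM in FACS_WT. Every LCM_GFP library lay below every sorted library. Its log2 change was -4.35 (SE 0.68, adjusted p = 0.00262 from limma) against FACS_GFP and -3.82 (SE 0.69, adjusted p = 0.00467) against FACS_WT. It is the C/D member that was above 0 in every library. Snord89 (110 bases) was at 0 in LCM_GFP, against 797, 632 and 342 FPKM in FACS_GFP (adjusted p = 2.94e-05) and 133.6, 140 and 0 FPKM in FACS_WT. For LCM_GFP against FACS_WT it did not reach the minimum for a test. Other rows of 110 bases had 132 FPKM in library 1 of FACS_WT and 148 and 553 FPKM in library 2, so 2 of the 3 stood near Snord89.

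Among H/ACA RNAs, Snora33, Snora68 and Snora31, annotated in human as guides of pseudouridines in ribosomal RNA, had the highest medians. Snora33 had 0, 24.5, 0 and 0 FPKM in LCM_GFP, 771, 841 and 1532 FPKM in FACS_GFP, and 299, 206 and 386 FPKM in FACS_WT. The LCM_GFP values lay below those of both sorted groups, with log2 changes of -8.80 (SE 1.15, adjusted p = 0.00111) and -7.00 (SE 1.15, adjusted p = 0.00304) by limma. Snora31 had 0, 0, 76.9 and 0 FPKM in LCM_GFP, 470, 445 and 985 FPKM in FACS_GFP, and 229, 420 and 586 FPKM in FACS_WT. Its log2 changes were -7.64 (SE 1.52, adjusted p = 0.00756) and -7.02 (SE 1.51, adjusted p = 0.0104).

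Snora68 had 0, 272, 22.1 and 0 FPKM in LCM_GFP, 947, 920 and 939 FPKM in FACS_GFP, and 221, 266 and 233 FPKM in FACS_WT. Library 2 of LCM_GFP lay above all FACS_WT libraries, so in FPKM only the comparison with FACS_GFP had groups apart. In single-fragment values, which rest on few values in LCM_GFP, Snora68 stood at 15 in library 2 of LCM_GFP. It stood at 17.9, 15 and 21.8 in FACS_GFP, so these groups were not apart on that scale. The log2 change was -6.72 (SE 1.85, adjusted p = 0.0274) against FACS_GFP, and -4.75 (SE 1.83, adjusted p = 0.0802) against FACS_WT. Without library 4 of LCM_GFP the first missed the threshold (log2 change -5.66, adjusted p = 0.0579), as it did without any 1 FACS_GFP library (adjusted p = 0.0804 to 0.0839), and without library 2 of LCM_GFP the second passed it (-6.40, adjusted p = 0.00759). SNORA65 (114 bases) and SNORA4 (139 bases) were at 0 in LCM_GFP. SNORA65 had 517, 732 and 904 FPKM in FACS_GFP and 190, 597 and 161 FPKM in FACS_WT, and SNORA4 had 299, 287 and 179 FPKM and 72.0, 190 and 58.1 FPKM there.

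Snora23, in an intron of the import receptor gene Ipo7, went the other way. It had 26.1, 62.1, 44.8 and 27.4 FPKM in LCM_GFP, 11.8, 8.35 and 8.73 FPKM in FACS_GFP, and 6.84, 21.01 and 12.9 FPKM in FACS_WT. The LCM_GFP libraries lay above all 6 sorted ones. Against FACS_GFP the log2 change was 1.87 (SE 0.44, adjusted p = 0.0151), and without a FACS_GFP library it was 1.79 to 2.02 with adjusted p of 0.0744 to 0.0982. Against FACS_WT it was 1.53 (SE 0.52, adjusted p = 0.0542), and without library 1 of LCM_GFP it was 1.70 (adjusted p = 0.0350). With another scaling of the libraries Snora23 passed the test against FACS_WT too, at 2.03 and 1.83 by median ratio and quantile scaling (adjusted p = 0.0226 and 0.0340).

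Cajal body RNAs passed in 2 of 8 tested against FACS_GFP, Scarna3a and SCARNA6, and both were lower. Of the 7 that reached 1 FPKM in both groups, 1 was lower. These shares are near the 19.6% of all genes that were lower, so they are no result about the class. SCARNA6 (272 bases) was at 0 in LCM_GFP, against 5.56, 7.29 and 1.94 FPKM in FACS_GFP (adjusted p = 0.00234) and 3.35, 4.61 and 4.21 FPKM in FACS_WT (adjusted p = 0.00044). Scarna3b had 0, 104, 25.1 and 13.9 FPKM in LCM_GFP, 121, 200 and 173 FPKM in FACS_GFP, and 100, 78.9 and 45.1 FPKM in FACS_WT, and neither LCM_GFP comparison passed (adjusted p = 0.0795 and 0.215). Without library 1 or library 2 of LCM_GFP the first did (-2.24 and -4.47, adjusted p = 0.0439 and 0.0275). Scarna3a had 8.54, 9.40, 22.3 and 0 FPKM in LCM_GFP, 111, 91.8 and 111 FPKM in FACS_GFP, and 42.7, 21.6 and 0 FPKM in FACS_WT. It fell by 3.92 on the log2 scale against FACS_GFP (SE 0.97, adjusted p = 0.0184), a call lost without any FACS_GFP library (adjusted p = 0.0655 to 0.0751), and its groups overlapped against FACS_WT (-0.52, adjusted p = 0.811). SCARNA15 (the row of 128 bases) had 0, 0, 301 and 0 FPKM in LCM_GFP, 0, 173 and 44.1 FPKM in FACS_GFP, and 113, 69.8 and 18.6 FPKM in FACS_WT, with overlap throughout. Without library 3 of LCM_GFP it passed against FACS_WT (-5.76, adjusted p = 0.00152).

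SNORA66 and SNORA26, within the ribosomal protein gene Rpl5 and the proteasome gene Psmd1, were the other H/ACA RNAs of high median. SNORA66 had 0, 18.1, 328 and 0 FPKM in LCM_GFP, 207, 226 and 129 FPKM in FACS_GFP, and 40.2, 82.2 and 116 FPKM in FACS_WT. SNORA26 had 0, 44.8, 155 and 122 FPKM in LCM_GFP, 199, 107 and 84.6 FPKM in FACS_GFP, and 0, 140 and 37.2 FPKM in FACS_WT. Their groups overlapped and neither passed (adjusted p = 0.112 and 0.368 against FACS_GFP). Without library 3 of LCM_GFP, SNORA66 did (-6.10 and -4.79 against FACS_GFP and FACS_WT, adjusted p = 0.0092 and 0.0225). For 5 members more LCM_GFP than sorted libraries reached 1 FPKM: SNORA32, SNORA58 and SNORA67 did in 2 and 1, and SCARNA16 and a SNORA17 row in 3 and 2. These 5 were picked after their values were seen, and none passed a test on all libraries.

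Against FACS_WT, 42 members were tested over 13415 genes, and 16 were lower (3 C/D, 11 H/ACA and 2 Cajal body RNAs), where 19.1% of all genes tested were lower. None was higher at the adjusted threshold by limma, against 12.3% of all genes. Of the 42, 20 had an unadjusted p under 0.05 in either direction, as had 5945 of the 13415 genes. Of the 16, 13 were at 0 in all LCM_GFP libraries. Among 29 members that reached 1 FPKM in both groups 3 were lower, a share not above the 19.1% of all genes. The median was -2.34 over the 42, -1.32 over the 29 and -0.59 over all genes, which were not limited to those with values in both groups. Without libraries 1 and 3 of LCM_GFP 19 of 35 were lower and 0 higher. Of all 11586 genes tested in that setting, 3798 were lower and 888 were higher. This comparison shares its LCM_GFP libraries with the one above, so the lists are not independent. The mice also differ in GFP expression and sex here, which cannot be told apart from the isolation method. Snord13 (U13), at 0 in LCM_GFP, against 341, 358 and 582 FPKM in FACS_WT, had an adjusted p of 2.74e-05. It entered the test only through FACS_WT, where its 358 FPKM in library 2 stood near other rows of 104 bases there. In LCM_GFP other rows of that length had 326.5 to 439 FPKM. Snora78, in the noncoding host Snhg9, was at 0 in LCM_GFP and had 0, 79.0 and 483 FPKM in FACS_GFP and 114, 145 and 189 FPKM in FACS_WT (adjusted p = 4.97e-05 against FACS_WT). SNORA3, within Zfp828, was at 0 in LCM_GFP and had 246, 134.7 and 102 FPKM in FACS_GFP (adjusted p = 7.56e-05) and 97.1, 74.7 and 0 FPKM in FACS_WT. For LCM_GFP, neither Snora78 against FACS_GFP nor SNORA3 against FACS_WT reached the minimum for a test.

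The count of lower members leaned on each sorted library. Without any 1 of the FACS_GFP libraries it was 3 to 5 of 20 to 24 tested, and without any 1 of the FACS_WT libraries 3 of 25 to 27. With 2 sorted libraries a member at 0 in LCM_GFP could not reach the minimum of 3 libraries. Of the calls still tested without a FACS_GFP library, Snora23 included, 3 were kept and 3 were lost each time. Lower calls over all genes fell too, to 304 to 329 of 12685 to 12697 without a FACS_GFP library. Without a FACS_WT library they fell to 326 to 384 of 12695 to 12702.

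Sorted GFP against sorted wild-type microglia compared the mice within 1 isolation method. Of 55 members tested over 11814 genes, 1 was higher (Snora68) and 3 were lower (Snord13, SNORA17 and SNORA8), where 0.0339% and 0.0762% of all genes were higher and lower, or 4 and 9 genes. Of the 55, 51 reached 1 FPKM in both groups, and of these 1 was higher and none lower. An unadjusted p under 0.05 was found for 14 of the 55 and for 1552 of the 11814 genes. The median log2 change was 0.69 over the 55 members and 0.00 over all genes. With rows of up to 200 bases divided by the single-fragment value of their library, an alternative chosen after seeing the data, the members' median was 0.16.

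Snora68, at 947, 920 and 939 FPKM in FACS_GFP, against 221, 266 and 233 FPKM in FACS_WT, rose by 1.96 on the log2 scale (SE 0.12, adjusted p = 0.000259). The male FACS_GFP library, library 2, had the 920 FPKM, above all 3 male FACS_WT libraries. In single-fragment values Snora68 stood at 17.9, 15 and 21.8 in FACS_GFP and at 11.1, 12.8 and 13 in FACS_WT, still without overlap. Divided by the single-fragment value, its log2 change was 0.84 and missed the threshold (adjusted p = 0.136).

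The 3 lower members were at 0 in every FACS_GFP library. SNORA17 (the row of 132 bases with 20.1, 20.5 and 16.4 FPKM in FACS_WT, adjusted p = 3.6e-06) stood at 1.01, 0.984 and 0.914 single-fragment values there. SNORA8, within Taf1d, had 14.8, 15.1 and 12.2 FPKM in FACS_WT (adjusted p = 5.28e-06), or 0.973, 1 and 0.998 single-fragment values. Snord13 had an adjusted p of 3.22e-07, and its 358 FPKM in library 2 of FACS_WT lay between the 348 and 361 FPKM that other rows of 104 bases had in that library. The values of SNORA17 and SNORA8 in FACS_WT were thus those of about 1 fragment per library, so their difference from 0 in FACS_GFP is one of about 1 fragment per library. These 3 calls were lost without any 1 of the FACS_WT libraries, where the members no longer reached the minimum of 3 libraries.

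FACS_GFP lay above FACS_WT for 14 of the 55 members and below it for 4, where 11.5% and 9.29% of all genes tested did so. Snord118 was among the 14, with a log2 change of 1.28 (SE 0.35, adjusted p = 0.264). In single-fragment values its FACS_GFP and FACS_WT libraries overlapped (153 to 495 and 189 to 383). Snora33 was another (1.79, SE 0.30, adjusted p = 0.130), and it passed only with quantile normalization (1.81, adjusted p = 0.0137) or the replicate number as a block (adjusted p = 0.00225).

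Host genes were compared in the same fits. On their strand, 47 members lay within 43 distinct host genes, 34 of them in an intron and 13 over an exon or untranslated stretch of a transcript. Of 42 hosts tested, 6 were lower and 0 higher in LCM_GFP against FACS_GFP, where 19.6% and 12.5% of all genes were, with a median log2 change of -0.28. Against FACS_WT 4 were lower and 0 higher, where 19.1% and 12.3% of all genes were (median -0.41). None was called by limma between FACS_GFP and FACS_WT (median 0.00). There 6 of the 42 had an unadjusted p under 0.05, as had 1552 of all 11814 genes tested. The difference between a small RNA's change and its host's was not tested.

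Rps12, a ribosomal protein gene that holds Snora33, had 512, 343, 727 and 283 FPKM in LCM_GFP, 411, 343 and 505 FPKM in FACS_GFP, and 519, 464 and 554 FPKM in FACS_WT. Its groups overlapped, with a log2 change of 0.07 against FACS_GFP (adjusted p = 0.895) where that of Snora33 was -8.80. Tpt1, the host of Snora31 and a gene of translational control, had 695, 319, 187 and 253 FPKM in LCM_GFP and 206, 195 and 275 FPKM in FACS_GFP (0.52, adjusted p = 0.399). Ipo7, host of Snora23, had 29.6, 31.1, 32.5 and 28.9 FPKM in LCM_GFP, above the 24.5, 25.0 and 28.4 FPKM in FACS_GFP, without a call (0.23, adjusted p = 0.619).

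**Figure D5:**
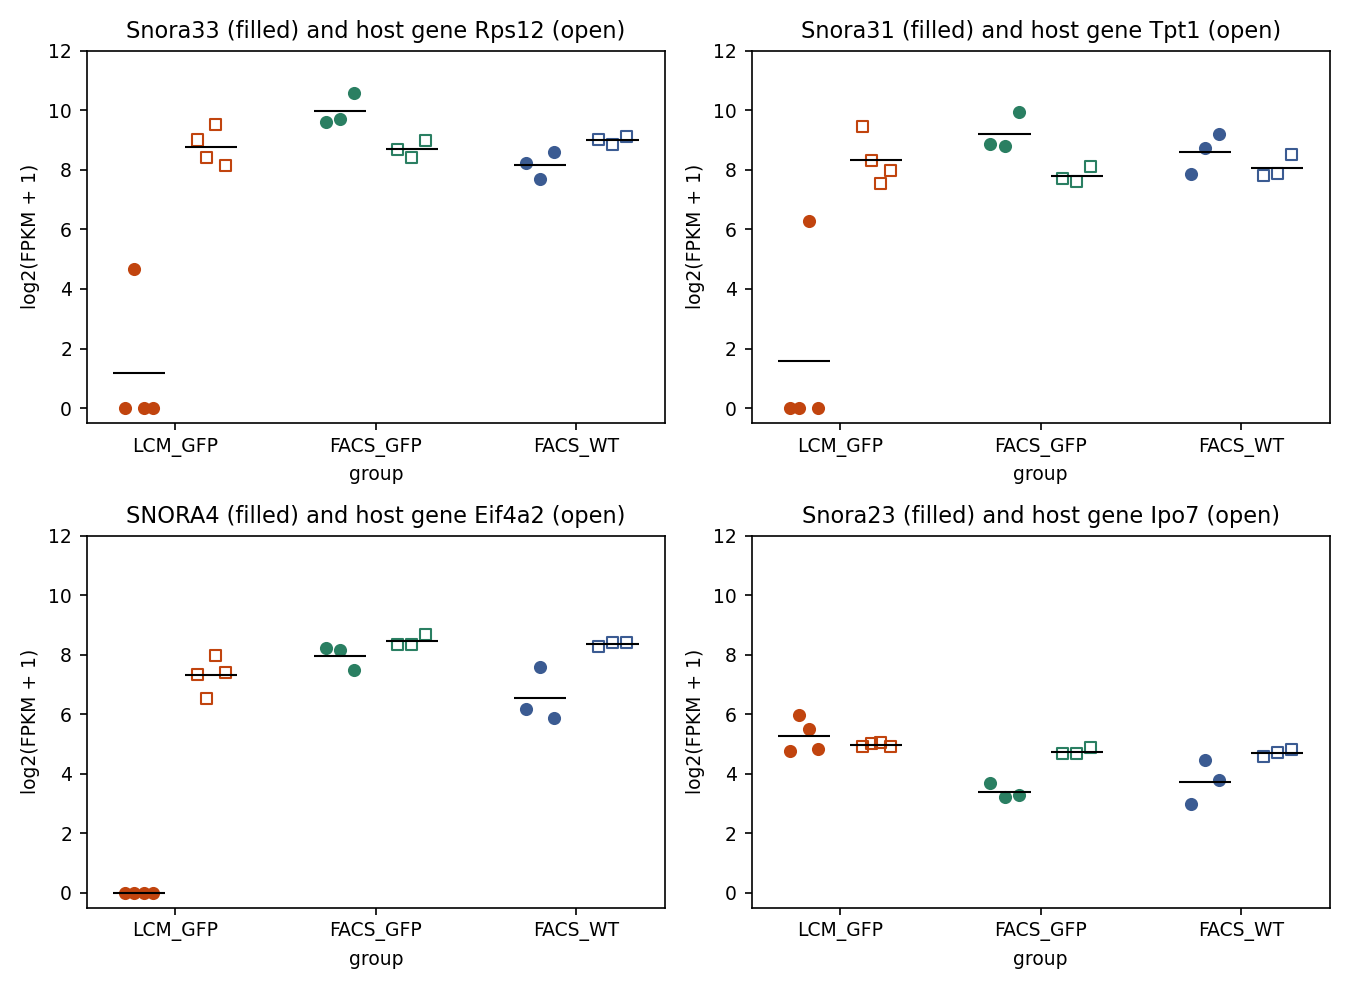
Level of 4 H/ACA RNAs (filled points) and of their host genes (open squares) in each library, as log2(FPKM + 1), by group; black lines are group means on that scale. Of the 4 hosts, Eif4a2 was called in LCM_GFP against FACS_GFP (log2 change -1.16), while Snora33, Snora31 and SNORA4 lie lowest in LCM_GFP and Snora23 lies highest there.

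Hosts with a call of their own were few among the named members. Eif4a2, an RNA helicase gene of translation initiation that holds SNORA4, had 161, 91.6, 251 and 167 FPKM in LCM_GFP and 326, 327 and 412 FPKM in FACS_GFP, a log2 change of -1.16 (adjusted p = 0.0436). Snhg9 was at 0 in all 4 LCM_GFP libraries, like its Snora78, against 11.2, 3.93 and 11.2 FPKM in FACS_GFP (adjusted p = 0.000911) and 6.23, 2.07 and 3.47 FPKM in FACS_WT (adjusted p = 0.00171). Snx5, host of Snord17, had 109, 285, 217 and 196 FPKM in LCM_GFP and 324, 327 and 359 FPKM in FACS_GFP, below it without a call (adjusted p = 0.110). Fragments of an unspliced host transcript and of the small RNA inside it cannot be told apart in these values, and the strand used in counting is not given in the sources used here.

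The known hosts of the brain C/D families, written down as a list with earlier results known, were in part higher in laser-captured libraries. Snhg14 (listed as C230091D08Rik), the noncoding host at the locus of SNORD115 and SNORD116, was listed at 0 in all 10 libraries. Snrpn, at the same locus, had 85.4, 231, 245 and 372 FPKM in LCM_GFP, 0.416, 0.664 and 1.09 FPKM in FACS_GFP, and 0.148, 0.492 and 0.488 FPKM in FACS_WT (log2 change 6.92 against FACS_GFP, adjusted p = 0.000189). Rian, the host of the SNORD113 family, had 11.6, 7.498, 5.99 and 13.5 FPKM in LCM_GFP, and at most 0.00912 FPKM in a sorted library (3.35, adjusted p = 0.000928). Both rose in LCM_GFP, as did the 6 neuron markers above, whose part in this was not tested. The SNORD115, SNORD116 and SNORD113 rows were at 0 there but for the 1 SNORD116 row. The list of noncoding hosts also held the coding gene Taf1d. Its Meg3 and Mirg are noncoding genes of the Dlk1-Dio3 locus rather than known hosts of C/D or H/ACA RNAs. Of its 11 genes tested, 4 were higher (Meg3, Rian, Mirg and Snhg11) and 3 lower (Snhg1, Snhg9 and Snhg12) in LCM_GFP against FACS_GFP. The same counts held against FACS_WT. Over 57 coding hosts, 2 were higher and 5 lower against FACS_GFP, and 2 and 6 against FACS_WT. Among all genes 12.5% and 19.6% were higher and lower against FACS_GFP, and 12.3% and 19.1% against FACS_WT. Gas5, host of Snord44 and Snord47, had 338, 41.0, 105 and 105 FPKM in LCM_GFP and 164, 154 and 166 FPKM in FACS_GFP (adjusted p = 0.542).

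The proteins of the particles did not pass in any comparison. All 8 core genes were tested: Fbl, Nop56, Nop58 and Nhp2l1 of the C/D particle, the last known by its 15.5K product, and Dkc1, Nop10, Nhp2 and Gar1 of the H/ACA particle. None was called by limma, with 0, 1 and 2 of the 8 at an unadjusted p under 0.05 in LCM_GFP against FACS_GFP, LCM_GFP against FACS_WT and FACS_GFP against FACS_WT. Among all genes, 6022 of 13403, 5945 of 13415 and 1552 of 11814 were, in the same order. Fbl, the methyltransferase, had 26.3, 9.56, 13.7 and 1.08 FPKM in LCM_GFP, 33.1, 31.6 and 25.3 FPKM in FACS_GFP, and 38.6, 35.5 and 43.5 FPKM in FACS_WT (log2 change -1.67, adjusted p = 0.153, and -2.05, adjusted p = 0.0882). Dkc1, the pseudouridine synthase, had 27.5, 29.4, 10.5 and 22.3 FPKM in LCM_GFP and 28.6, 25.5 and 27.7 FPKM in FACS_GFP, which overlapped (-0.36, adjusted p = 0.558). The median over the 8 was -0.09 against FACS_GFP and -0.16 against FACS_WT.

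Among 18 genes of particle assembly and transport, 3 were lower and none higher in LCM_GFP, in both comparisons with sorted cells, with medians of -0.73 and -0.87. That share is near the 19.6% and 19.1% of all genes that were lower, so it is no result about the list. Tgs1, which hypermethylates the cap of RNAs such as U8, had 12.7, 10.0, 14.9 and 7.17 FPKM in LCM_GFP, 70.1, 76.3 and 64.0 FPKM in FACS_GFP, and 75.8, 62.03 and 61.3 FPKM in FACS_WT. Its log2 change was -2.59 against FACS_GFP (SE 0.39, adjusted p = 0.00197) and -2.50 against FACS_WT (SE 0.40, adjusted p = 0.00255), without overlap. Those of Shq1, a chaperone of dyskerin, were -2.33 (adjusted p = 0.00202) and -2.07 (adjusted p = 0.00407). Those of Ruvbl2, an ATPase of the assembly complex, were -1.97 (adjusted p = 0.00673) and -2.15 (adjusted p = 0.00490). None of the 18 was called by limma between FACS_GFP and FACS_WT. There 1 had an unadjusted p under 0.05, as had 1552 of all 11814 genes tested.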

How the data were processed

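RNA-seq of 10 mouse microglia libraries was analysed in groups taken from the labels. The submitters' processing notes name Cufflinks 2.0.2, Bowtie2 2.0.0, TopHat2 2.0.4, CASAVA 1.8.2 and build mm9. Order of steps, annotation, strand and multiply aligned fragments are not given in the sources used here. The deposited table holds FPKM per gene and library, per the file headers, and gives no counts, so depth is unknown and no intervals were computed. Sums of FPKM were 393949 to 632854.

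Genes that reached 1 FPKM in 3 or more of the compared libraries entered limma 3.58.1 (trend, robust, statmod 1.5.0; R 4.3.3) as log2(FPKM + 1), a scale that understates changes of low genes. Only the groups compared entered a fit. Tests were two-sided, Benjamini-Hochberg adjusted over all genes tested and called under 0.05. The test was checked on simulated data. Python 3.11.15, pandas 2.3.3, numpy 2.4.6 and matplotlib 3.10.9 handled tables and figures.

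Names and sequences were matched by gene ID to GENCODE M21 for 62 of 68 members. Host genes are rows of the deposited table whose locus contains a member, with strand and exons from GENCODE M21. Length windows of the single-fragment value were chosen after seeing the data. Where rows of up to 200 bases were divided by it in a test, the value of the window of 118 to 126 bases was used. Named members are all 4 C/D RNAs, the 6 H/ACA and 3 Cajal body RNAs of highest median FPKM, the 5 largest called changes in each direction per comparison, up to 5 called members at 0 in all of one group and at 1 FPKM or more in all of the other, those beside the inclusion level, textbook names, core proteins and hosts. The members and lists were chosen with earlier results of these data known. P-values measure the spread between these libraries. Other deposited tables were not used here, and 1 host gene and 1 sequence are not reported here.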

Additional observations from a re-analysis of the deposited data

Results flagged for a closer look

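Within the 4 LCM_GFP libraries, 6 of the 12 named members with any value there had 1 library far from the other 3, by Dixon's test at its 95% critical value. Chance alone marks about 1 in 20 groups of continuous values. That rate does not apply to a member at 0 in 3 libraries, which is marked whatever its value in the other library, and the members share libraries. Library 3 stood apart for SCARNA15 (301 FPKM), SNORA66 (328 FPKM) and Snora31 (76.9 FPKM), and library 2 for Snora68 (272 FPKM), Snora33 (24.5 FPKM) and the SNORA17 row of 132 bases (74.5 FPKM). In 4 of the 6, SCARNA15, Snora31, Snora33 and SNORA17, the other 3 libraries were listed at 0. Whether depth, cell content or RNA quality moved with these values was not tested.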

How the results depend on the processing

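Named calls kept their direction under every alternative in which they were tested. The number of members was 68, and 64 at 5 FPKM in 3 libraries. Leaving out 1 library at a time gave 0 to 1 higher and 3 to 20 lower of 20 to 38 members tested for LCM_GFP against FACS_GFP. Over all genes, 738 to 2034 were higher and 304 to 3400 lower of 12685 to 13045. For LCM_GFP against FACS_WT it was 0 to 2 and 3 to 20 of 25 to 41 members. There 763 to 1990 genes were higher and 326 to 3267 lower of 12695 to 13044. For FACS_GFP against FACS_WT it was 1 to 2 higher and 0 to 4 lower of 46 to 51 members. There 2 to 10 genes were higher and 2 to 12 lower of 11657 to 11690. The count of higher members was 1 with median ratio scaling and 1 with quantile normalization for LCM_GFP against FACS_WT (Snora23), and for FACS_GFP against FACS_WT it was 2 with quantile normalization, 2 with the replicate block (Snora33 added) and 0 with short rows divided by the single-fragment value. Replicate numbers did not pair LCM_GFP with sorted libraries, where correlations of same-numbered libraries were -0.05 to 0.02. Between the sorted groups they were 0.01 to 0.21, and libraries 1 and 3 matched best to their own number. The replicate block gave 1 higher and 19 lower of 37 members against FACS_GFP (all genes: 1385 and 2151 of 12762). Against FACS_WT it gave 0 and 16 of 41 (all genes: 1347 and 2075 of 12758). Between sorted groups it gave 2 and 3 of 55 (all genes: 9 and 10 of 11814). Outside leave-outs, Snora68 lost its call against FACS_GFP with a pseudocount of 0.1 (adjusted p = 0.0511) and no filter (0.0676), Scarna3a with a pseudocount of 0.1 (0.0655) and with the single-fragment value (0.0594), and SCARNA6 with group weights (0.174). Scarna3b passed against FACS_GFP with the replicate block (-3.54, adjusted p = 0.0406) and with group weights (0.0173). Without LCM_GFP libraries 1 and 3, Snora68 lost its call against FACS_GFP (-5.82, adjusted p = 0.104), and SNORA66 and Snora75 against FACS_GFP and Snora75, SNORA8 and SCARNA15 against FACS_WT gained one (adjusted p of 0.00208 to 0.0251). Median ratio scaling moved the median of all genes from -0.60 to -0.14 for LCM_GFP against FACS_GFP, and that of members from -3.42 to -3.03. The members' median was -4.77 with a pseudocount of 0.1, -4.51 without LCM_GFP library 3, -5.40 without LCM_GFP libraries 1 and 3 and -2.54 to -2.10 without 1 FACS_GFP library. The number of fragments behind a value limits all members near the single-fragment value.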
